A study of Mus musculus with 5 samples.

Results

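The killer cell lectin-like receptor (Klr) family was taken as every gene of the T cell libraries' feature list whose symbol begins with Klr followed by a, b, c, d, e, f, g, h, i or k, which gave 26 of 32285 genes. Its transcripts were counted in single cells from 2 libraries of tumor-residing T cells of BALB/c mice that were 12 weeks old and bore 4T1 tumors in the mammary fat pad. 4T1 is a mouse mammary carcinoma cell line, here marked with Thy1.1. Mice of both groups were given doxorubicin, a DNA-damaging chemotherapeutic, at 5 mg/kg in 3 doses spaced 3 days apart. One library held the T cells of tumors that responded to the drug (sensitive) and the other those of tumors that did not (resistant), each pooled from 3 tumors. T cells were isolated by magnetic depletion of other cells, and no T cell library of untreated tumors was analysed here. With 1 library per group, the spread between tumors cannot be estimated. Intervals given below are 95% intervals that cover counting error only, and every difference between groups is a difference between these 2 libraries.

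Klr genes encode receptors of the C-type lectin-like fold that sit as dimers on natural killer (NK) cells and on some activated or memory CD8 T cells. Inhibitory members recruit phosphatases through a motif in their own tail, whereas activating members signal through adaptor proteins such as Hcst (DAP10) and Tyrobp (DAP12). Many of them read MHC class I molecules, MHC-like stress proteins or other lectins on neighboring cells, and the balance between the inputs sets whether the cell kills. All 26 genes lie on mouse chromosome 6 (build GRCm38.p6). Klrg2 (38625693 to 38637242) and Klrg1 (122270596 to 122282882) stand apart, and the other 24 run from the start of Klrb1a at 128609227 to the end of Klra2 at 131247362, the natural killer gene complex.

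The bases before the start site are shown for 6 members whose levels carry the results: the Ly49 genes Klra5 and Klra7, which differed in opposite directions in CD8 cells, and Klrc1, Klrk1, Klrb1a and Klrb1f, which were higher in sensitive NK cells. RefSeq held a promoter for 23 of the 26 members (not Klrd1, Klrg1 or Klri2). Each line gives the 120 bases before a start, 5′ to 3′ on the gene's own strand, and capitals mark the core letters of a Runx (TGTGGT or ACCACA) or ETS (AGGAAG or CTTCCT) motif on either strand.
Klra5 (chr6:129913225-129913344, minus strand): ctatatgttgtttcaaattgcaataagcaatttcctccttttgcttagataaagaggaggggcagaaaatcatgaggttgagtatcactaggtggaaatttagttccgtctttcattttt
Klra7 (chr6:130233323-130233442, minus strand): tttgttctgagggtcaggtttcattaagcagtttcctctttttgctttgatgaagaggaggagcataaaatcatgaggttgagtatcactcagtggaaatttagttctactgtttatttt
Klrc1 (chr6:129678974-129679093, minus strand): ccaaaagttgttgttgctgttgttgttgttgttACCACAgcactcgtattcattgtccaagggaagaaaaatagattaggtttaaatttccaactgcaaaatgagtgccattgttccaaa
Klrk1 (chr6:129623865-129623984, minus strand): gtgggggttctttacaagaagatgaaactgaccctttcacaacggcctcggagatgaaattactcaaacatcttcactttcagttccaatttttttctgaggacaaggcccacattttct
Klrb1a (chr6:128622935-128623054, minus strand): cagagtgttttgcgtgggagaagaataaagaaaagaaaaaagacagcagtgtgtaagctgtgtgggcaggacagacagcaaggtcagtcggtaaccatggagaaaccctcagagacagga
Klrb1f (chr6:129045781-129045900, plus strand): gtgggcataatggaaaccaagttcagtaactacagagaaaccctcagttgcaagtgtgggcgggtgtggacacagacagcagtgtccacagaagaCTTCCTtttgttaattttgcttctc
Klra5 and Klra7 were identical at 92 of 119 aligned bases (77.3%), and neither of the 2 windows printed for them held either motif. Klrc1 held a Runx core and Klrb1f an ETS core, and Klrk1 and Klrb1a held neither. Over the longer window of 250 bases, the Runx core was present in 9 of the 28 promoters of these 23 members, against 14.0% of 32851 mouse promoters, and the ETS core in 9 of 28, against 29.5%. The AP-1 letters TGACTCA and the T-box letters AGGTGTGA, searched on both strands, were in none of the 28, against 4.46% and 1.12% of all promoters. Another RefSeq start of Klra7, not shown, held an ETS core in its 120 bases. A match of letters is a description and not a binding site.

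Near-identical copies limit which member a read can be assigned to. In the last 500 bases of the annotated transcripts, where reads of this assay fall, 56.3% of the 50-base windows of Klrc1 were also present in a transcript of another member (mostly Klrc2), as were 42.4% of those of Klra3 and 40.8% of those of Klra9. Klra5, Klra7, Klrd1, Klrk1, Klrc2, Klre1 and the Klrb1 genes had no such window in their own last bases. The BALB/c strain carries another set of Ly49 (Klra) genes than the C57BL/6 reference, so a Klra symbol here names the closest reference gene.

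The sensitive library held 3949 barcodes and 31690845 transcript counts (unique molecular identifiers, UMIs), and the resistant library 6116 and 35908799. After filtering and removal of 112 and 159 putative doublets, 2074 sensitive and 1880 resistant cells lay in clusters of T cell-like or NK cell-like profile. The median mitochondrial share over all barcodes was 2.47% and 8.95%. The limit set on this share was exceeded by 5.90% of sensitive and 45.7% of resistant barcodes, which were left out. After all filters, 3448 sensitive and 3091 resistant barcodes were kept. Of all barcodes, 31 occurred in both libraries, 7 of them among the T and NK cells. Cells were assigned by transcripts outside the family. NK cells carried Ncr1 and no Cd3 (80 sensitive and 43 resistant cells), CD8 cells carried Cd3 and Cd8 without Cd4 (1290 and 1546), CD4 cells Cd3 and Cd4 without Cd8 (179 and 46), Foxp3+ cells Cd3 and Foxp3 (97 and 33), and γδ cells Cd3 and Trdc without Trac (64 and 20). The isolation kit removes cells with CD49b (Itga2), so NK cells here are those left after depletion, and Itga2 stood at 9.42 and 6.20 CPM in them. CPM, the level used throughout, is the gene's UMIs per 1000000 UMIs of the gate. Levels were not divided by transcript length because each molecule is counted once near its 3′ end. Summed macrophage or monocyte markers stood at 331 and 184 CPM in the CD8 gate and 372 and 242 CPM in the NK gate, fibroblast markers at 64.2 and 24.4 CPM and at 137 and 18.6 CPM, and neutrophil markers in the CD8 gate at 4.78 and 36.9 CPM. In NK cells of both libraries 4 of the 9 macrophage or monocyte markers (C1qa, C1qb, C1qc and Adgre1) were at 0, while Lyz2 was at 7.07 and 12.4 CPM, the reverse of the summed list. Lyz2 ran against the sum in CD8 cells too, at 4.78 and 13.6 CPM. What part the mitochondrial share and these markers have in the library differences was not tested.

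The family as a whole was abundant in NK and CD8 cells and scarce in CD4 cells, in the same order in both libraries. NK cells led, at 3255 CPM in sensitive and 2722 CPM in resistant tumors. CD8 cells followed with 2326 and 2007 CPM, γδ cells with 1298 and 1777 CPM, and Foxp3+ cells with 1184 and 1612 CPM. CD4 cells held 195 and 483 CPM. The library ratios thus pointed in different directions: the sensitive library was higher in NK cells (ratio 1.20, 1.10 to 1.30) and CD8 cells (1.16, 1.13 to 1.18), and lower in CD4 (0.404, 0.311 to 0.528), Foxp3+ (0.734, 0.642 to 0.842) and γδ cells (0.730, 0.594 to 0.901). The Foxp3+ and γδ gates are mixtures, and these ratios did not hold in all their cells: Foxp3+ cells without a Cd8 UMI stood at 261 and 249 CPM (1.05, 0.528 to 2.31), and γδ cells outside the Il17a-led and NK cell-like clusters at 2090 and 1615 CPM (1.29, 0.887 to 1.93). The median gene of the same gates stood at a ratio of 1.06 in NK and 1.09 in CD8 cells. Over all T and NK cells together the family was nearly level at 1847 and 1944 CPM.

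**Figure D1:**
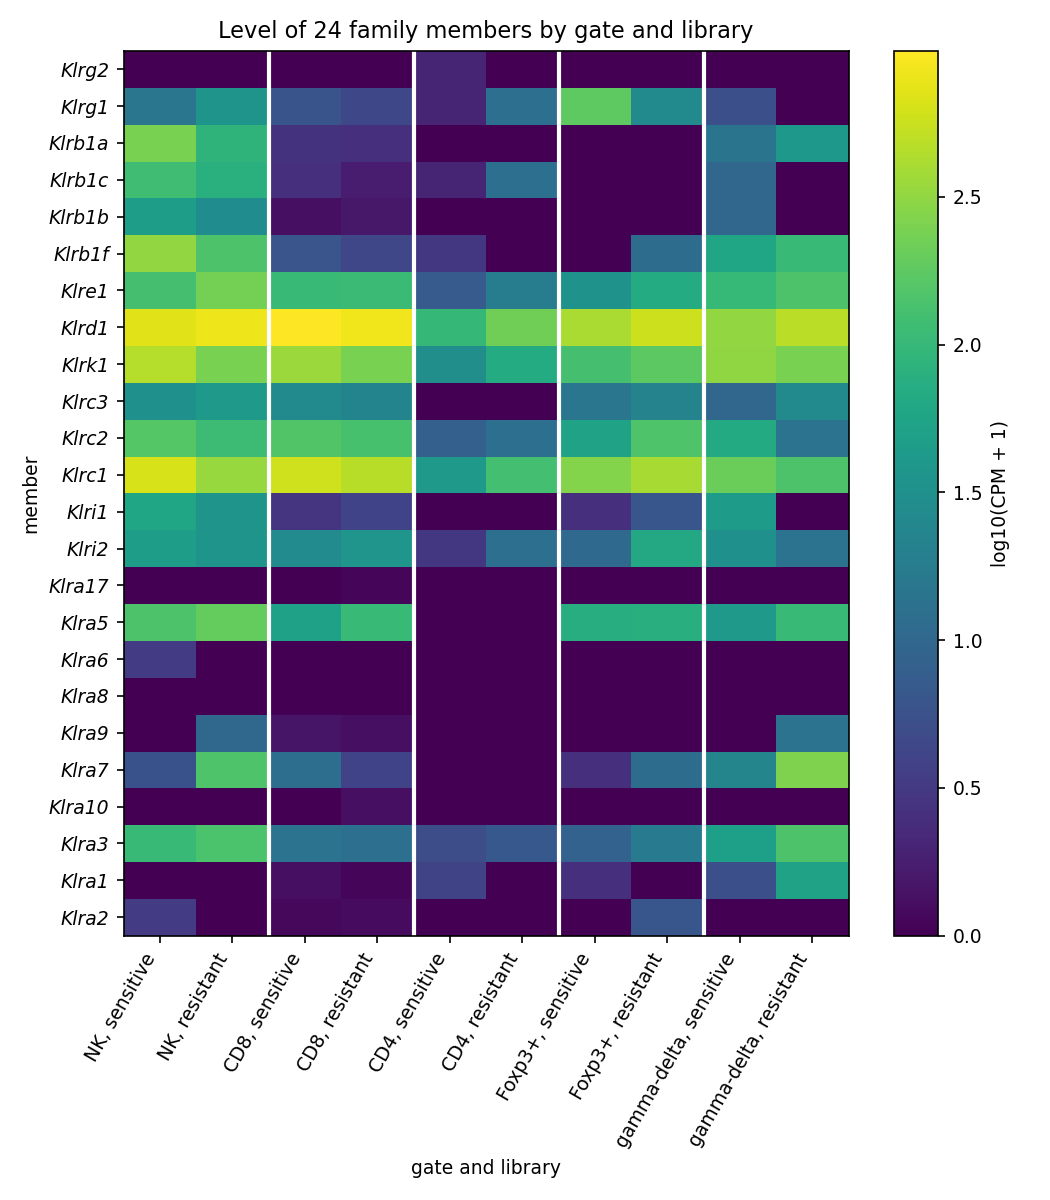
Color gives log10(CPM + 1) of the 24 members with a UMI in the T and NK cells, 1 row each, in the 5 gates of each library. Klrd1, Klrc1 and Klrk1 are high in NK and CD8 cells of both libraries, and Klrb1a and Klrb1f are highest in NK cells of both.

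Few members made up most of the signal. Of the 26 genes, 15 had at least 50 UMIs over the T and NK cells of both libraries, 9 had 1 to 49, and Klrb1 and Klra4 had none. Klrd1 alone gave 39.9% and 41.8% of the family's 19251 and 20656 UMIs, followed by Klrc1 (24.5% and 22.7%) and Klrk1 (14.9% and 12.2%). The rare members were Klrb1b with 26 and 14 UMIs, Klra1 with 28 and 12, Klra9 with 3 and 7, Klra2 with 2 and 3, Klra10 with 0 and 3, Klrg2 with 2 and 0, and Klra6, Klra8 and Klra17 with 1 UMI each in both libraries together. For 10 of the 15 frequent members the same gate was highest in both libraries, NK cells for 8 of them, and for 10 CD4 cells were lowest in both. A tie without UMIs was not counted for CD4 cells, as with Klrb1a, which had none in CD4 or Foxp3+ cells. The same shares over all genes were not computed, so these counts only describe the members.

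Between cell types, 6 of 15 members were more than 2-fold higher in NK than in CD8 cells in both libraries, against 3.31% of 9558 genes. These were Klrb1a, Klrb1c, Klrb1f, Klri1, Klra3 and Klrg1, of which Klrg1 rested on 6 and 11 UMIs in NK cells. Klrb1a and Klrb1c, with 11 and 14 and with 10 and 6 UMIs in CD8 cells, met the count minimum through NK cells, so the count of 6 is no support for the list. No member was lower in NK cells by that rule, against 5.81% of genes. In CD8 over CD4 cells, 10 of 12 members were more than 2-fold higher in both libraries, against 4.81% of 9627 genes, and none was lower, against 2.72%. Of these, Klrd1, Klrc1, Klrc2, Klrk1, Klre1 and Klri2 had UMIs in both gates of both libraries, Klri2 only 2 in each CD4 gate. Klra5, Klra7 and Klrc3 had no UMI in CD4 cells of either library and Klrb1f none in the resistant one. They met the count minimum through CD8 cells, so the count of 10 is no support for the list. For Klra7 and Klrb1f the resistant CD8 levels of 3.02 and 3.36 CPM lay below the 17.2 CPM that 3 counts would give in the resistant CD4 gate, and no difference was detectable there. Foxp3+ cells exceeded CD4 cells for 6 of 6 members tested, against 1.97% of 4722 genes, and was lower for none, against 1.21%. This count rests largely on the gates, since the CD4 gate leaves out cells with a Cd8 UMI and the Foxp3+ gate does not. Such a UMI was found in 50 of 97 sensitive and 22 of 33 resistant Foxp3+ cells. Most of the family in the Foxp3+ gate, Klrd1 included, came from them, so the count of 6 is no support for the list. In Foxp3+ cells without a Cd8 UMI the family was at 261 and 249 CPM, against 195 and 483 CPM in CD4 cells. Klra5 had no UMI in CD4 cells and Klrg1 1 and 2, so both met the minimum through Foxp3+ cells, and resistant Klrg1 rested on 5 against 2 UMIs.

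CD94 and its NKG2 partners were the most abundant set. Klrd1 encodes CD94, which pairs with the Klrc proteins to read the nonclassical MHC molecule Qa-1 (H2-T23). Klrd1 stood at 986 CPM in sensitive and 854 CPM in resistant CD8 cells, and at 723 and 825 CPM in NK cells. It was highest in CD8 cells in both libraries, though in the resistant library NK and CD8 cells did not differ beyond counting error (NK over CD8 0.966, 0.851 to 1.09). In CD4 cells Klrd1 was at 99.0 and 218 CPM, which left CD8 cells 9.96-fold higher in the sensitive library and 3.91-fold higher in the resistant one.

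Klrc1 encodes NKG2A, the inhibitory partner. In CD8 cells it was at 596 and 474 CPM (ratio 1.26, 1.20 to 1.32). In NK cells it was at 652 and 338 CPM from 277 and 109 UMIs (1.93, 1.54 to 2.43). CD4 cells showed the opposite order, with 38 and 22 UMIs, or 39.2 and 126 CPM (0.310, 0.179 to 0.550). Klrc1 was therefore higher in the sensitive library in both cytotoxic gates and lower in CD4 cells, although the CD4 ratio turned to 1.17 when gates needed 2 UMIs of each marker. Klrc2 encodes the activating NKG2C and was at 150 and 132 CPM in CD8 cells (1.14, 1.04 to 1.24) and at 158 and 112 CPM in NK cells (1.41, 0.929 to 2.18, and 3.66 when cells were thinned to 1000 UMIs). In Foxp3+ cells Klrc2 had 33 and 28 UMIs, or 51.8 and 148 CPM (0.351, 0.206 to 0.603). This gate also holds cells with a Cd8 UMI, and the ratio ran from 0 to 0.404 over 9 alternatives. Klrc3 (NKG2E) was the scarcest of the set, with 26.1 and 21.3 CPM in CD8 cells, 1.13 and 1.12 UMIs per cell that had any, and no UMI in CD4 cells.

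Detection of Klrd1 was compared between cells with and without another member. With every cell thinned to 1000 UMIs, Klrd1 was detected in 65.4% of Klrc1-positive and 51.3% of Klrc1-negative sensitive CD8 cells, and in 62.8% and 52.4% of resistant ones. For Klrc2 the shares were 61.8% (54.7 to 68.6) and 56.3% (53.3 to 59.3) in sensitive and 65.5% and 55.0% in resistant cells. Genes that do not pair with CD94 varied. Klrd1 was detected in 64.5% of Klrk1-positive and 54.0% of Klrk1-negative sensitive cells and in 61.0% and 54.9% of resistant ones. For Klre1 the shares were 75.6% and 55.3% in sensitive and 55.0% and 56.5% in resistant cells, so a gap was not particular to the partners. H2-T23, which carries their ligand, was at 399 and 297 CPM in the T and NK cells themselves (1.34, 1.28 to 1.41) and at 367 and 266 CPM in cancer (epithelial) cell-like cells (1.38, 1.25 to 1.52). Fibroblast-like cells had the same order (1.34, 1.25 to 1.44). It was level within counting error in macrophage or monocyte-like (1.03, 0.924 to 1.14), neutrophil-like (1.02, 0.811 to 1.29) and dendritic cell-like cells (1.05, 0.791 to 1.39).

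Klrk1 encodes NKG2D, the activating receptor for the stress ligands of the Raet1, H60 and Ulbp1 families. It was at 345 and 247 CPM in CD8 cells (1.40, 1.32 to 1.48), short of the 1.5-fold limit. NK cells held 193 and 80 UMIs, or 455 and 248 CPM (1.83, 1.41 to 2.41). γδ cells stood close to these with 312 and 246 CPM, and CD4 cells were at 28.9 and 69.0 CPM (0.419, 0.206 to 0.904). In the resistant library NK and CD8 cells carried Klrk1 at the same level within counting error (1.00, 0.793 to 1.26), whereas in the sensitive library NK cells were higher (1.32, 1.13 to 1.53). Its adaptor Hcst was at 829 and 1009 CPM in CD8 cells (0.821, 0.793 to 0.850) and 688 and 521 CPM in NK cells (1.32, 1.09 to 1.61), so receptor and adaptor differed in opposite directions in CD8 cells. Of the ligand genes, Ulbp1 was at 7.58 and 11.4 CPM in T and NK cells and at 7.89 and 8.79 CPM in cancer (epithelial) cell-like cells. H60b went the other way in T and NK cells, at 14.7 and 9.88 CPM (1.49, 1.15 to 1.92). Raet1d and Raet1e had at most 2 UMIs per library there, and H60c none. In fibroblast-like cells Raet1d had 36 and 14 UMIs (1.98, 1.04 to 3.98).

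Klre1 encodes a receptor that pairs with the products of Klri1 (inhibitory) or Klri2 (activating). In CD8 cells Klre1 differed between libraries by less than counting error, at 104 and 108 CPM (0.964, 0.872 to 1.07). In NK cells it was at 130 and 236 CPM from 55 and 76 UMIs (0.550, 0.381 to 0.788), the only member lower in sensitive NK cells past 1.5-fold among the 10 with enough UMIs. Thinned to 1000 UMIs, its ratio of 0.677 fell short of that fold. Klri2 was at 26.9 and 35.7 CPM in CD8 cells (0.754, 0.622 to 0.911) and 22.3 and 37.5 CPM over all T and NK cells (0.594, 0.503 to 0.700). Klri1 had its highest level in NK cells, with 25 and 11 UMIs (58.9 and 34.1 CPM) against 12 and 27 in the far larger CD8 gate (1.91 and 3.02 CPM). γδ cells held 10 Klri1 UMIs in the sensitive library (44.0 CPM) and none in the resistant one. Klre1 was found in 51.7% of Klri2-positive and 25.7% of Klri2-negative sensitive CD8 cells, and in 51.1% and 33.6% of resistant ones. After thinning the shares were 16.1% (5.45 to 33.7, 5 of 31 cells) and 9.13% in sensitive and 23.4% (12.3 to 38.0) and 8.63% in resistant cells, so only the resistant difference was beyond counting error. In NK cells, unthinned, the order differed between libraries, at 21.4% of 14 Klri2-positive and 34.8% of 66 Klri2-negative sensitive cells and at 83.3% of 6 and 45.9% of 37 resistant ones.

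The Ly49 genes, many but not all of which encode receptors for classical MHC class I, differed between libraries in both directions. Klra5 (Ly49E, inhibitory) had 317 UMIs in 78 of 1290 sensitive CD8 cells and 950 UMIs in 256 of 1546 resistant ones. That amounts to 50.5 and 106 CPM, a ratio of 0.475 (0.417 to 0.540). Klra5-positive cells carried similar numbers in both libraries, 4.06 and 3.71 UMIs each with a top cell of 25 and 17, so the libraries differed in how many cells were positive. After thinning, 2.73% (1.91 to 3.78) of sensitive and 7.91% (6.61 to 9.37) of resistant CD8 cells had a Klra5 UMI, against 6.05% and 16.6% before. In fibroblast-like cells, which should lack the gene, 0 of 817 and 0 of 601 thinned cells had one, which by 3 counts allows a share of up to 0.367% and 0.499%, and unthinned 3 of 829 and 5 of 602 had one. In NK cells Klra5 was at 141 and 192 CPM in 11 and 16 cells (0.735, 0.507 to 1.07), 2.80-fold and 1.81-fold above CD8 cells. It had no UMI in CD4 cells, and in sensitive Foxp3+ cells 37 of its 46 UMIs came from 1 cell.

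Klra7 (Ly49G, inhibitory) was higher in sensitive CD8 cells and lower in sensitive NK and γδ cells. CD8 cells held 70 and 27 UMIs in 44 and 24 cells, or 11.2 and 3.02 CPM (3.69, 2.34 to 5.98). NK cells held 2 UMIs in 1 sensitive cell and 47 UMIs in 7 resistant cells, or 4.71 and 146 CPM (0.0323, 0.0038 to 0.123), too few UMIs in all for the 50-UMI minimum. γδ cells had 5 and 20 UMIs, 17 of the resistant 20 in 1 cell (0.0848, 0.0249 to 0.233). The NK and γδ values of Klra7 thus rest on 9 resistant cells, in which 1 cell gave 15 and another 17 UMIs. Summed over all T and NK cells it was level, at 11.2 and 10.7 CPM. Klra3 (Ly49C, inhibitory) was at 104 and 140 CPM in NK cells (0.743, 0.479 to 1.15) and 12.7 and 11.4 CPM in CD8 cells (1.12, 0.822 to 1.51), with neither difference beyond counting error. Klra7 was detected, without thinning, in 10.3% of Klra5-positive and 2.97% of Klra5-negative sensitive CD8 cells, and in 3.13% and 1.24% of resistant ones. Klra5-positive cells were the deeper ones, at a median of 5255.5 against 3989 UMIs and of 5168 against 4500.5, and what part depth has in this was not tested. H2-D1 and H2-K1, which encode classical MHC class I, were at 3231 and 2575 CPM and at 1911 and 1677 CPM in cancer (epithelial) cell-like cells.

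The Klrb1 genes encode the NKR-P1 receptors, of which Klrb1a, Klrb1c (NK1.1 in other strains) and Klrb1f are activating and Klrb1b inhibitory. Among the T and NK gates they were highest in NK cells. Klrb1a had 104 and 28 UMIs in NK cells, or 245 and 86.8 CPM (2.82, 1.84 to 4.45), against 1.75 and 1.57 CPM in CD8 cells. Klrb1f had 137 and 46 UMIs in NK cells, or 323 and 143 CPM (2.26, 1.61 to 3.23), and was 63.3-fold and 42.4-fold above CD8 cells. Klrb1c followed with 118 and 77.5 CPM (1.52, 0.922 to 2.56), an interval that includes 1. Klrb1b had 20 and 9 UMIs in NK cells. All 4 had higher CPM in sensitive NK cells, for Klrb1a and Klrb1f beyond counting error. Klrb1c was not found in more of the sensitive NK cells (43.8%, against 46.5% of resistant ones), and its ratio turned to 0.431 when cells were thinned to 1000 UMIs. Clec2d, the ligand of Klrb1b, was at 184 and 123 CPM in T and NK cells and at 289 and 246 CPM in fibroblast-like cells.

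Klrg1, an inhibitory receptor for cadherins that marks effector T cells and some regulatory T cells, was foremost a gene of Foxp3+ cells in the sensitive library. There it had 112 UMIs in 33 of 97 cells, against 5 UMIs in 5 of 33 resistant cells. That is 176 and 26.3 CPM (6.68, 2.78 to 20.96). In CD8 cells Klrg1 had 31 UMIs in each library (4.94 and 3.47 CPM), and in NK cells 6 and 11. Its CD8 ratio of 1.42 (0.836 to 2.42) was not beyond counting error and ran from 0.938 to 8.03 over 9 alternatives. The Foxp3+ gate also held cells with a Cd8 UMI, 50 of them sensitive and 22 resistant. In these the whole family was at 1628 and 1977 CPM, while in the 47 and 11 Foxp3+ cells without a Cd8 UMI it was at 261 and 249 CPM. Klrg1 made up 38 of 54 family UMIs in the latter sensitive cells and 3 of 10 in the resistant ones (2.46, 0.779 to 12.4), so without the Cd8-positive cells the library difference was not beyond counting error. Most of the family in this gate, Klrd1 included (257 of 262 sensitive and 109 of 112 resistant UMIs), came from cells with a Cd8 UMI. Cdh1, a Klrg1 ligand, was at 56.4 and 59.2 CPM in cancer (epithelial) cell-like cells.

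**Figure D2:**
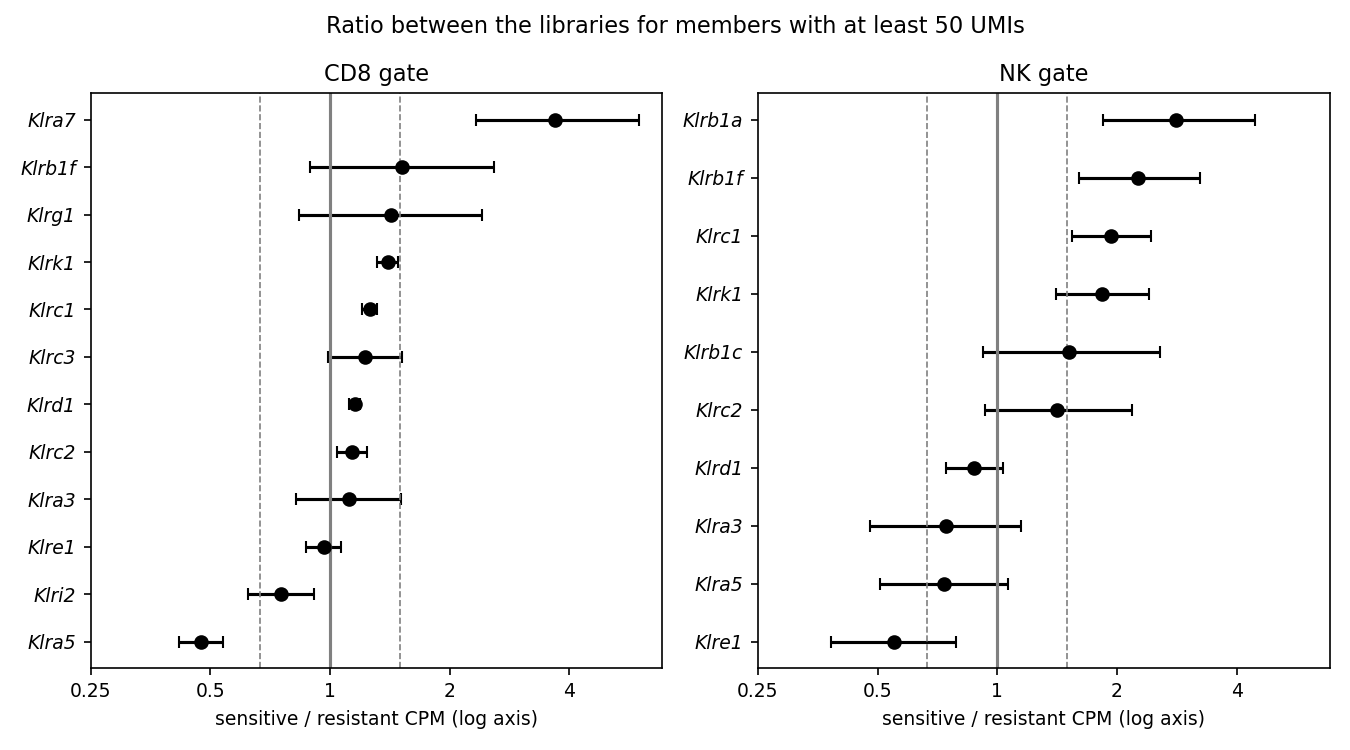
Sensitive over resistant ratio of CPM for the members with 50 or more UMIs over both libraries in the CD8 (left) and NK (right) gates, on a log axis, with 95% counting intervals as bars, a solid line at 1 and dashed lines at 1.5-fold either way. Klra5 lies below and Klra7 above the lines in CD8 cells, and Klrb1a, Klrb1f, Klrc1 and Klrk1 lie above them in NK cells.

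Members past 1.5-fold are given by gate, each beside the share of all genes in that gate. In CD8 cells 12 members had 50 UMIs over both libraries. Klra7 and Klrb1f were higher in the sensitive library (2 of 12, against 6.98% of 9449 genes) and Klra5 was lower (1 of 12, against 3.15%). Klrb1f had only 32 and 30 UMIs there and an interval that included 1 (1.52, 0.893 to 2.58). In NK cells 5 of 10 were higher (Klrb1a, Klrb1c, Klrb1f, Klrc1 and Klrk1, against 15.7% of 2143 genes) and Klre1 was lower (against 7.42%). Of these, Klrb1c passed in only 4 of 11 alternatives and reversed in 1. In CD4 cells Klrd1 and Klrc1 were the 2 members tested and both were lower (against 10.4% of 2981 genes lower and 17.5% higher). In Foxp3+ cells Klrg1 was higher (1 of 6, against 19.8% of 2472 genes) and Klrc2 lower (1 of 6, against 5.91%). None of 3 members passed in γδ cells, against 18.9% of 811 genes higher and 6.91% lower. Over all T and NK cells 4 of 15 were higher, Klrb1a, Klrb1c, Klrb1f and Klrg1 (against 9.65% of 10076 genes), and Klra5 and Klri2 were lower (against 2.88%).

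CD8 cells were spread differently over clusters in the libraries, with cluster 1 the largest in the sensitive and cluster 0 in the resistant library, so the CD8 values were also taken within clusters. Cluster 0, led by Cfd, Gm156 and Tcrg-C2, with Klra5 and Klrd1 among its 10 leading genes, held 660 resistant and 220 sensitive CD8 cells. Cluster 1, led by immunoglobulin segments, held 417 sensitive and 241 resistant cells, and cluster 2, led by granzymes and perforin (Gzmf, Prf1, Gzmg), 377 and 259. Cluster 8 (proliferation genes such as Mki67 and Top2a) held 78 and 199, cluster 10 (interferon-response genes Ifit3 and Ifit1) 102 and 140, and cluster 5 (Foxp3 among its leading genes) 67 and 30. Klra5 was lower in the sensitive library in each of the 6, at ratios of 0.692, 0.122, 0.690, 0.156, 0.357 and 0.329 in that order. The last of these included 1 in its interval (0.0962 to 1.03).

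The family as a whole was higher in the sensitive library beyond counting error in clusters 0 and 2 and lower beyond it in none, while Klrd1 differed in both directions. The granzyme and perforin cluster gave the widest family difference, 3192 and 2120 CPM (1.51, 1.44 to 1.57), with Klrd1 at 1432 and 892 CPM and Klrk1 at 432 and 237 CPM (1.82, 1.61 to 2.06). In the immunoglobulin-led cluster the family was level at 1915 and 1918 CPM, and Klrd1 was lower in the sensitive library (0.866, 0.793 to 0.945). In the proliferating cluster the family stood at 1481 and 1528 CPM. Klrk1 ranged from 0.929 in the cluster with Foxp3 to 1.82.

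**Figure D3:**
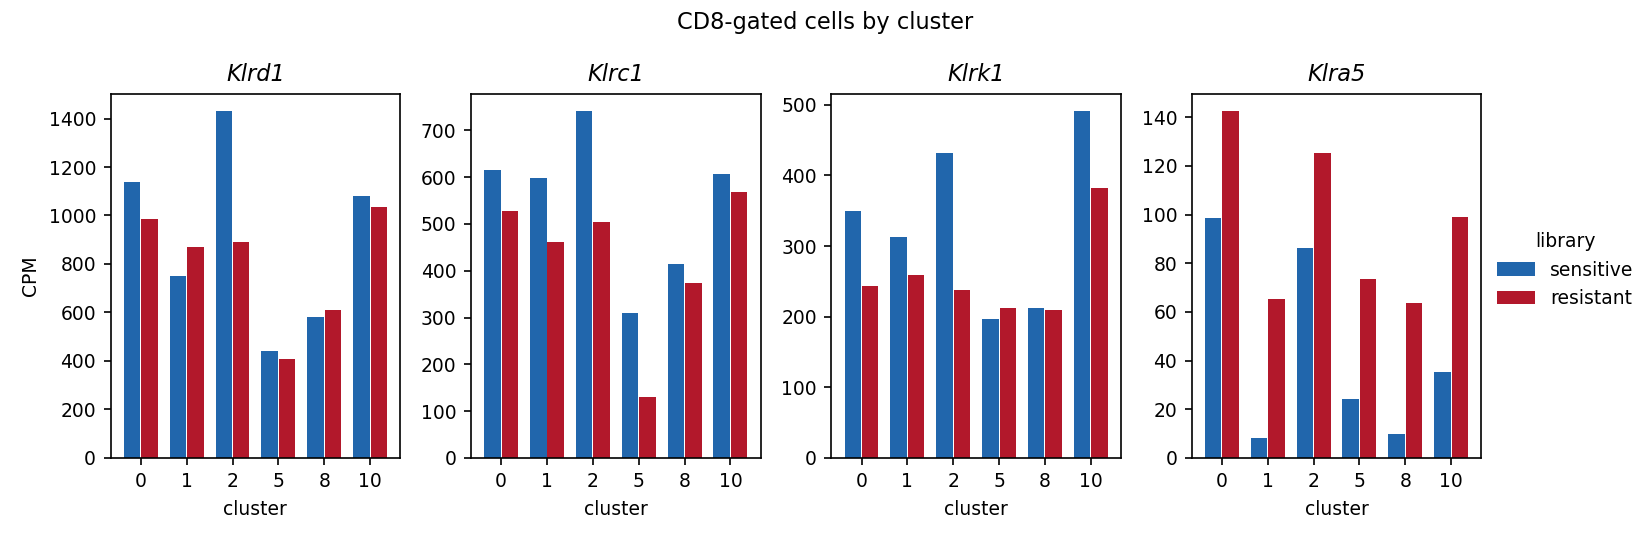
Bars give the CPM of Klrd1, Klrc1, Klrk1 and Klra5 in the CD8 cells of each of 6 clusters, by library. Klra5 is lower in the sensitive library in all 6, while Klrd1 is higher in it beyond counting error in clusters 0 and 2 and lower beyond it in cluster 1.

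Within a library, CD8 cells were also split by single transcripts outside the family. In Pdcd1+ Havcr2+ cells, which carry PD-1 and TIM-3, Klra5 was 3.02-fold (2.40 to 3.79) the level of other sensitive CD8 cells but 1.15-fold (0.995 to 1.32) in the resistant library, and the family was at 1.34 and 0.957. These cells were also deeper, at a median of 4695 against 3904 UMIs for sensitive and 6470 against 4332 for resistant cells. Tcf7+ cells, where Tcf7 marks stem-like T cells, had less of the family in both libraries (0.579 and 0.723) and of Klri2 (0.307 and 0.236). In Itgae+ cells Klre1 was lower (0.376 and 0.659). Cells with Mki67 or Top2a had 0.772 and 0.825 of the family level of other CD8 cells.

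Most NK and CD8 cells had a UMI of at least 1 member, so this share says little about level in them. After thinning to 1000 UMIs, 85.9% (83.8 to 87.7) of sensitive and 84.8% (82.9 to 86.5) of resistant CD8 cells had a family UMI, and 96.4% and 97.7% did before. Median depths before thinning were 4005.5 and 4579.5 UMIs, and 10 and 4 shallower cells were left out. Thinned NK cells were at 92.5% and 97.7%, and CD4 cells at 16.9% (11.7 to 23.3) and 37.0% (23.2 to 52.5). Fibroblast-like cells, which should lack the family and are taken as background, were at 1.35% and 2.66% after thinning from median depths of 13460 and 14074.5 UMIs. Klrd1 was detected in 768 of 1280 sensitive and 878 of 1542 resistant thinned CD8 cells, Klrc1 in 43.3% and 38.5% and Klrk1 in 29.7% and 22.6%. Unthinned, the order of the libraries was the other way for Klrd1 (89.4% and 92.6%) and Klrc1 (76.9% and 82.1%), so for these no order is read from the shares. An NK cell carried a median of 6 and 7 different members and a CD8 cell 3 and 4 before thinning, and 3 and 2 and 2 and 1 after it, so the order of the libraries turned with depth.

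**Figure D4:**
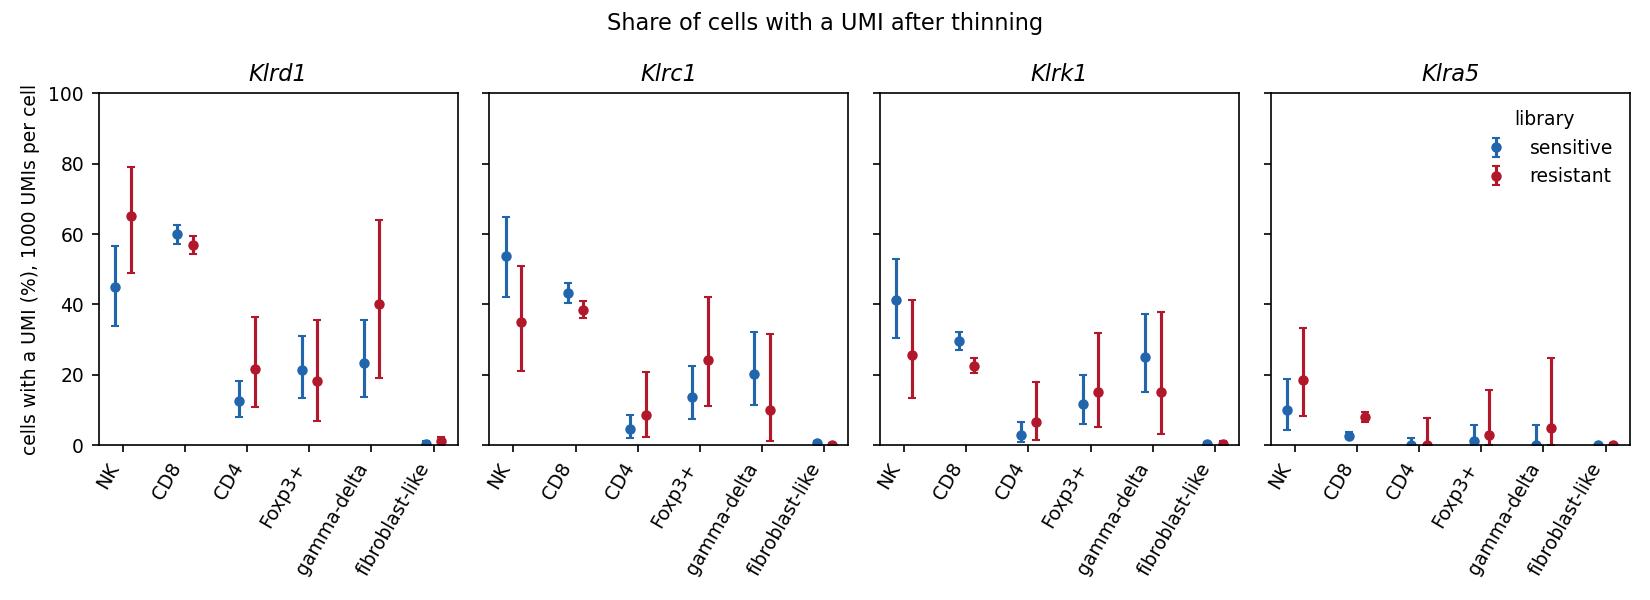
Share of cells (%) with a UMI of Klrd1, Klrc1, Klrk1 or Klra5 after thinning to 1000 UMIs, by gate and in fibroblast-like cells, with 95% Clopper-Pearson intervals as bars. CD8 and NK cells lie above the fibroblast-like cells for each gene, and for Klra5 the resistant CD8 cells at 7.91% lie above the sensitive ones at 2.73%.

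γδ cells were a mixture with respect to the family. Those in the cluster led by Il17a (41 sensitive and 8 resistant cells) had 294 and 378 CPM. The 9 and 4 that fell in the NK cell-like cluster had 3086 and 3174 CPM, close to NK cells. The remaining 14 and 8 had 2090 and 1615 CPM. All 20 resistant Klra7 UMIs of this gate lay in the NK cell-like cluster. Trdc is also transcribed in NK cells.

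Klra2 and Klra17 were read mainly outside T and NK cells, and Klrk1, Klrb1b and Klri1 also in dendritic cell-like cells. Klra2 (Ly49B), which had 2 and 3 UMIs in T and NK cells, had 139 and 168 in macrophage or monocyte-like cells (58.4 and 72.9 CPM) and 24 and 36 in neutrophil-like cells (63.5 and 65.7 CPM). Klra17 (Ly49Q) had 14 and 33 UMIs in neutrophil-like cells (37.0 and 60.2 CPM) and 1 UMI in all T and NK cells. Klrb1b was at 48.4 and 36.9 CPM in dendritic cell-like cells from 20 and 19 UMIs, and Klri1 there at 19.4 and 13.6 CPM from 8 and 7. Klrk1 was higher than either there, at 50.8 and 75.8 CPM from 21 and 39 UMIs, and was found in 32 of 214 and 36 of 196 macrophage or monocyte-like cells. In both libraries Klra2 was thus read in myeloid cells, and Klra17 was highest in neutrophil-like cells. In fibroblast-like cells, which should lack it, Klrd1 was at 7.62 and 11.4 CPM, in 25 of 829 and 36 of 602 cells. Whether this is free RNA or doublets was not tested.

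**Figure D5:**
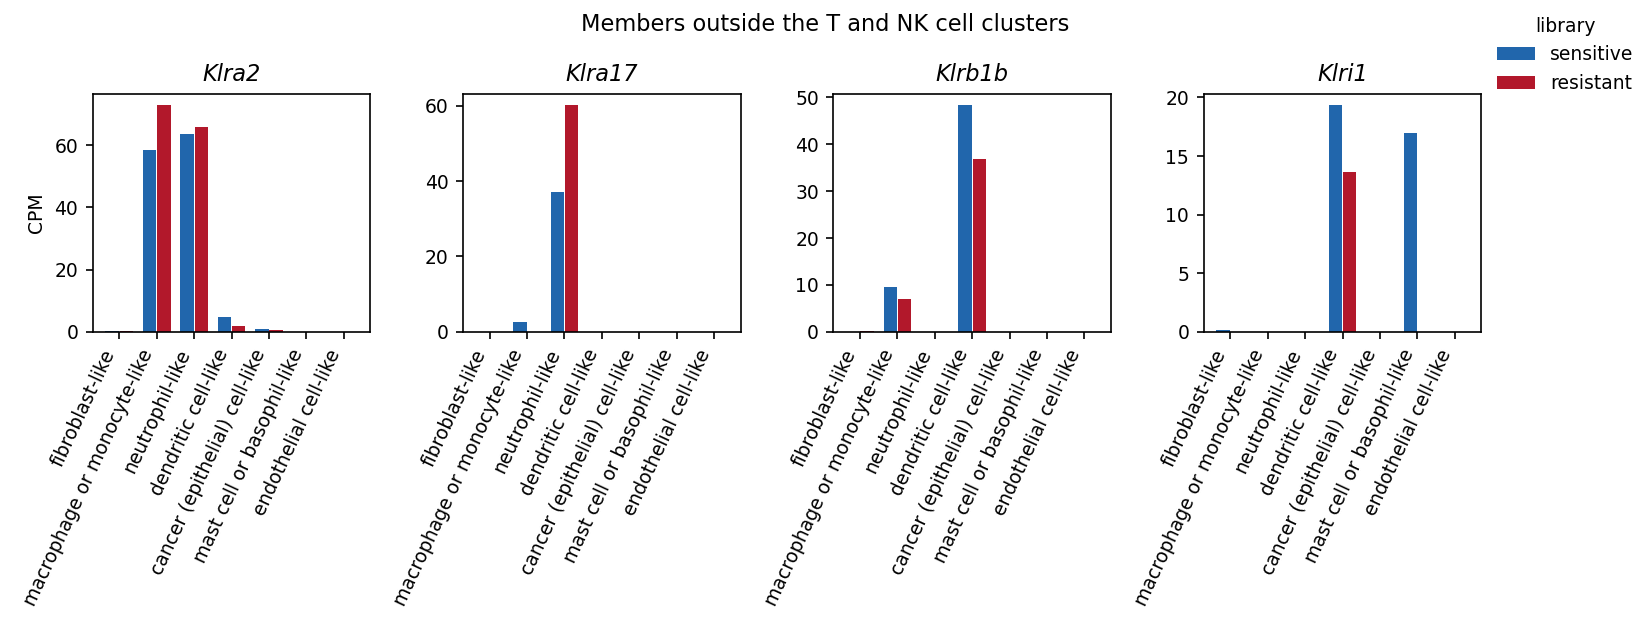
CPM of Klra2, Klra17, Klrb1b and Klri1 in the cell types outside the T and NK clusters, by library. Klra2 is read in macrophage or monocyte-like and neutrophil-like cells, Klra17 in neutrophil-like cells, and Klrb1b and Klri1 in dendritic cell-like cells, and the bar of Klri1 in mast cell or basophil-like cells is 1 UMI.

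Of the 15 adaptor and signaling genes listed for these receptors, 13 had enough UMIs in CD8 cells. None was higher in the sensitive library past 1.5-fold (against 6.98% of genes) and 1 was lower (against 3.15%). That gene was Fcer1g, an adaptor of activating receptors, at 108 and 228 CPM (0.476, 0.435 to 0.519). It was also lower in sensitive CD4 (0.253, 0.142 to 0.458) and Foxp3+ cells (0.259, 0.135 to 0.494). In γδ cells Fcer1g was level within counting error (0.938, 0.695 to 1.28), and in NK cells it was higher (1.22, 1.10 to 1.35). Tyrobp was at 23.6 and 25.8 CPM in CD8 cells against 2185 and 2025 CPM in NK cells, so this adaptor of several activating members was far higher in NK cells of both libraries. Tyrobp and Fcer1g were also among the markers used to name NK cell-like clusters, so a high level in NK cells was partly set in advance. Fcer1g was detected in 26.9% of Klra5-positive and 8.50% of Klra5-negative sensitive CD8 cells and in 35.9% and 19.8% of resistant ones, without thinning and with the same gap in depth as above. In NK cells 9 adaptors had enough UMIs, of which Zap70 (1.89) and Vav1 (1.87) were higher (against 15.7% of genes) and Fyb (0.658) lower (against 7.42%). The list had 2 higher and 2 lower of 11 in CD4 cells (against 17.5% and 10.4%), 2 and 2 of 9 in Foxp3+ cells (against 19.8% and 5.91%) and 3 and 0 of 7 in γδ cells (against 18.9% and 6.91%). Of 21 ligand genes, 17 were in the feature list, and 8 of these had enough UMIs over T and NK cells, with none higher past 1.5-fold (against 9.65% of genes) and Ulbp1 lower (0.666, against 2.88%).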

How the data were processed

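The authors made counts of UMIs per gene and barcode with Cell Ranger 6.0.0 on mm10 and deposited them per barcode, with no cell annotation. Here barcodes with 500 or more genes and at most 10% mitochondrial UMIs were kept, and doublets called with a scanpy 1.11.5 Scrublet score were removed at 0.8% per 1000 barcodes. Both libraries were clustered together without the Klr genes (2000 variable genes, 30 components, 15 neighbors, Leiden resolution 1, igraph 0.11.9), with no batch correction. UMIs were summed per gate and library and given as CPM. Ratios carry exact conditional binomial intervals and shares Clopper-Pearson intervals (scipy 1.17.1). With 1 pooled library per group there was no test, and a gene was called at 1.5-fold with at least 50 UMIs over both libraries. Members with 50 UMIs over T and NK cells are named with values, those with 1 to 49 with their UMIs, and those at 0 by name. Alternatives varied the scaling, mitochondrial limit, doublets, clustering, gates, depth, count minimum and fold. The ratio calculation was tested on simulated data. The members and lists were chosen with earlier results of these data known. Sequences are from RefSeq and positions from GENCODE vM21.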

Additional observations from a re-analysis of the deposited data

Results flagged for a closer look

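Ratios of Klra7, Klrc1 and Klrk1 passed 1.5-fold in opposite directions in different cell types, with intervals that leave out 1 and at least 20 UMIs in each gate. None of these differences was tested, since each group is 1 library. Klra7 was higher in the sensitive library in CD8 cells (ratio 3.69) and lower in NK (0.0323) and γδ cells (0.0848). Its NK value rests on 2 and 47 UMIs and its γδ value on 5 and 20, both under the minimum of 50 for a call. Neither was recomputed under the alternatives, and 17 of the 20 resistant γδ UMIs came from 1 cell. Klrc1 was higher in sensitive NK cells (1.93) and lower in sensitive CD4 cells (0.310), as was Klrk1 (1.83 and 0.419). The Klrc1 ratio in CD4 cells turned to 1.17 when gates needed 2 UMIs, so its opposite direction depends on the gate. Klrk1 in CD4 cells had 28 and 12 UMIs, under the minimum of 50 for a call, and was not recomputed under the alternatives.

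The whole-tumor libraries, which no comparison above used, also held family transcripts. Their family sum is over 30 listed genes and not the 26 above, so its CPM is not the same measure. In barcodes with Ptprc and Cd3 UMIs the family was at 1916 CPM in the library titled resistant (99 UMIs in 10 barcodes) and at 299 CPM in the saline control (37 UMIs in 50 barcodes), a ratio of 6.40 (4.35 to 9.61). The library titled sensitive had 10 UMIs in 6 barcodes, or 424 CPM (1.42 times the control, 0.629 to 2.91). The labels of the library titled resistant disagree on its response, so no direction is drawn from it.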

How the results depend on the processing

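No paired analysis was possible because each group has 1 library, and for the same reason no replicate could be left out. In CD8 cells the count of members higher in the sensitive library went from 2 to 1 when scaled by the median gene ratio or at a 2-fold threshold, and to 0 when cells were thinned to 1000 UMIs, where fewer members reach 50 UMIs. The count of lower members went from 1 to 2 with a minimum of 20 UMIs. The CD8 family ratio of 1.16 became 1.06 when scaled by the median gene, 1.19 with a Ptprc UMI in place of the T and NK clusters, 1.09 thinned, and 1.12 with clusters weighted alike, an alternative chosen after seeing the data. The NK family ratio of 1.20 became 1.05 thinned and 1.06 with NK cell-like clusters as the gate. Klrb1c in NK cells reversed to 0.431 when thinned, and Klrc1 in CD4 cells to 1.17 when gates needed 2 UMIs, and the cause was not tested. Klra5 in CD8 cells stayed past 1.5-fold in 10 of 10 alternatives (0.320 to 0.556) and Klra7 in 9 of 9 (3.26 to 4.89). Klrb1a and Klrk1 in NK cells stayed past it in 11 of 11 (1.90 to 3.02 and 1.504 to 2.58), Klre1 and Klrb1f in 10 of 11, Klrc1 in 9 of 11 and Klrb1f in CD8 cells in 6 of 9. Precision is limited in the resistant NK, CD4, Foxp3+ and γδ gates, which hold 43, 46, 33 and 20 cells.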

Other observations

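Among CD8 cells with a T cell receptor beta V segment read in at least 20 cells of both libraries, Klra5-positive cells were less frequent in the sensitive library for 11 of 12 segments. The exception, chosen after its values were seen, was Trbv17, with 14 of 47 sensitive cells (29.8%) and 5 of 35 resistant cells (14.3%) positive. In cancer (epithelial) cell-like cells, Clec2f, a gene of the Klrb1 ligand family, was at 39.4 and 21.3 CPM in sensitive and resistant tumors (1.85, 1.34 to 2.58).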
